A study of Triticum aestivum with 4 samples.

Results

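In developing seed of bread wheat, 40 of 61115 probe sets gave a clear signal in the genotype RL4452 and a signal near background in the genotype AC Domain. They were chosen by their intensity: at most 32 (5 on the log2 scale) on both AC Domain arrays, called off here, and at least 4 times that (7 on the log2 scale) on both RL4452 arrays, called on. The words on and off stand for these thresholds and say nothing of whether a transcript was made. Because the genotype difference chose the probe sets, that difference is a description here and carries no test. The 40 probe sets came from 37 transcript clusters, and 0 of them has a gene name in the annotation used here.

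The series holds 4 Affymetrix wheat GeneChip arrays, 2 biological replicates each of AC Domain and RL4452. AC Domain is a Canadian spring wheat cultivar, and both genotypes are parents of a mapping population. Both were grown in 1 field trial with 39 lines of that population and 3 field replications, and seed from tagged spikes was frozen 5 days after anthesis. No treatment, transgene or deletion is named in the labels for either group. Each tube was filled with whole young seeds, so that pericarp, endosperm and embryo were measured together. In such a sample, fewer cells of a type and less RNA per cell cannot be told apart.

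Bread wheat is a hexaploid with A, B and D subgenomes, and most of its genes exist as closely related copies (homoeologues) that can be expressed unequally. The array was built from expressed sequence tags, which were grouped into clusters of similar transcripts and then into sub-clusters that can hold copies, splice forms or ends of a gene. A probe set ID carries this history. In Ta.10945.2.A1_a_at the cluster is Ta.10945 and the sub-cluster is 2, and TaAffx marks clusters made by the manufacturer. An ending of a_at marks probes shared by transcripts of a gene, s_at probes shared by several genes and x_at probes that may cross-hybridise. The probes are short, and a transcript that is missing and a transcript whose sequence differs under the probes both leave a probe set dim. For the probe sets described here these cannot be told apart, and sequences of the probes were not used here.

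Median intensity per array lay between 31.9 and 33.7. The 95th percentile of 23 negative control probe sets was an intensity of 22.3 and their highest value 30.4. The seed showed signal for housekeeping and starch genes and little for storage proteins and the anther. On in all 4 arrays were 10 of 10 tubulin and actin probe sets, 16 of 18 for core histones and 3 of 4 for starch synthesis. For storage proteins it was 0 of 11 and for the anther gene RAFTIN 0 of 4. By this count other lists lay between or low. They had 2 of 4 for fructan and sugar, 7 of 31 for photosynthesis, 0 of 6 for late embryo and 0 of 5 for defence. Photosynthesis probe sets had array medians of only 12.9 to 17.9. Their summed intensity per array was nonetheless 56971 to 64440, beside 51572 to 67078 for core histones. The marker lists were searched by gene name, which the 40 probe sets lack. The lists could therefore hold none of the 40, and nothing on the role of the 40 is read from that. For 18S rRNA, a control probe set read 2586 and 1914 on the AC Domain arrays against 191 and 432 on those of RL4452, replicate 1 first. AFFX-Ta_Sucsyn_3_at, for sucrose synthase, read 4572 and 4176 against 2460 and 2169, and AFFX-Ta_Sucsyn_M_at 1101 and 828 against 945 and 238. For ubiquitin, AFFX-Ta_Ubiquitin_3_at was nearly level, at 5344 and 4368 against 5206.5 and 5000. AFFX-Ta_Ubiquitin_5_at was at 10327 and 8563 against 13091 and 6555. All 36 probe sets for poly(A) spike controls were lowest on the RL4452 replicate 1 array, and for RL4452 replicate 2 the fluidics log lists an aborted wash. The part of these in the results was not tested.

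The 40 probe sets covered a wide range of brightness in RL4452. Their geometric mean intensity over the 2 RL4452 arrays ran from 159 to 4124 with a median of 365. On the log2 scale, 14 of the 40 lay below 8, 9 between 8 and 9, 7 between 9 and 10, and 10 above 10. All 14492 probe sets that were on in both RL4452 arrays had a median of 438. In AC Domain the geometric means ran from 6.03 to 30.4 with a median of 17.3, against a median of 32.3 over all probe sets.

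The median difference, RL4452 minus AC Domain, was 4.86 on the log2 scale (29.0-fold), beside 0.05 over all probe sets. Within replicate 1 it was 4.62 and within replicate 2 it was 5.07. By size, 3 differed less than 8-fold, 11 between 8-fold and 16-fold, 7 between 16-fold and 32-fold, 11 between 32-fold and 64-fold, and 8 more than that. These folds depend on how low background lies. In 27 of the 40, both AC Domain arrays were below the negative control level of 22.3, in 10 only 1 was, and in 3 neither was. With each AC Domain value below 22.3 raised to that level, the folds between geometric means became lower bounds, given below as at least N-fold. They ran from at least 6.59-fold to at least 170-fold with a median of 16.2-fold. Such a bound holds for the means of 2 arrays, and the fold within 1 replicate can be smaller. Where neither AC Domain array was below 22.3, it is the measured fold.

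**Figure D1:**
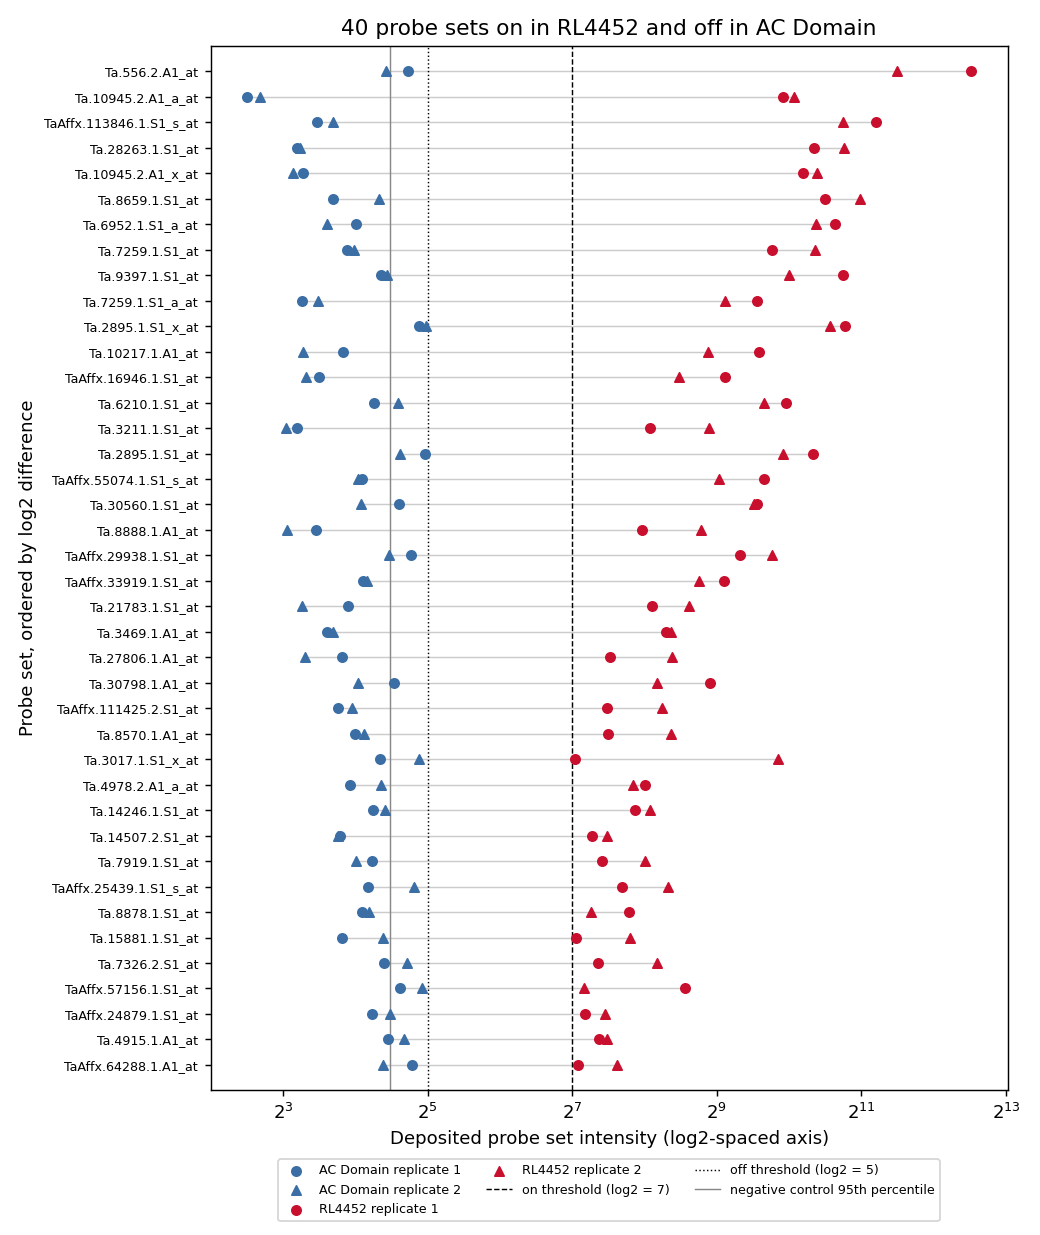
Deposited intensity (log2-spaced axis) of each of the 40 probe sets on the 2 AC Domain arrays (blue) and the 2 RL4452 arrays (red), ordered by the log2 difference. Dashed and dotted lines mark the on and off thresholds (7 and 5 on the log2 scale), and the grey line the negative control level of 22.3. The gap between the genotypes is set by the rule; Ta.3017.1.S1_x_at has the widest gap between the 2 RL4452 arrays.

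The extreme case was Ta.556.2.A1_at, the brightest of the 40 in RL4452 and the one with the largest difference. In each sentence on a probe set, the value of replicate 1 stands before that of replicate 2. Ta.556.2.A1_at was at 5883 and 2890.5 in RL4452 and at 26.5 and 21.5 in AC Domain, which is 12.01 ± 0.72 against 4.58 ± 0.21 on the log2 scale (SD, n = 2). Between the geometric means that is a difference of at least 170-fold, with 1 of the 2 AC Domain arrays above the negative control level. Sub-cluster 1 of the same cluster stayed on in AC Domain. Ta.556.1.S1_at was at 3545 and 4087 in RL4452 and at 3476 and 3225 in AC Domain. Ta.556.1.S1_x_at was at 4926 and 5341 in RL4452 and at 4789 and 4424 in AC Domain. Both were above AC Domain on each RL4452 array, but by only 0.19 and 0.16 on the log2 scale, beside 7.43 for Ta.556.2.A1_at. So in this cluster a probe set of 1 sub-cluster was bright in every array, and a probe set of the other in RL4452 arrays only.

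Cluster Ta.10945 showed the same arrangement with 2 probe sets on the RL4452 side. Ta.10945.2.A1_a_at was at 970.2 and 1075 in RL4452 and at 5.66 and 6.44 in AC Domain, both below the negative control level. Ta.10945.2.A1_x_at was at 1168 and 1333 in RL4452 and at 9.69 and 8.79 in AC Domain. Both belong to sub-cluster 2 and can share probes, so they are not separate evidence. They differed at least 45.8-fold and at least 56.0-fold. Ta.10945.1.S1_at, of sub-cluster 1, was at 536 and 884 in RL4452 and at 780.0 and 691 in AC Domain. Its genotypes overlapped, with a difference of -0.09 on the log2 scale.

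Cluster Ta.14507 had 3 sub-clusters. Ta.14507.2.S1_at was at 155 and 179 in RL4452 and at 13.8 and 13.5 in AC Domain, close to the threshold on the RL4452 side and well below it on the other. Sub-clusters 1 and 3 were on in AC Domain. Ta.14507.1.S1_at was at 816 and 556.2 in RL4452 and at 696 and 588 in AC Domain, and Ta.14507.3.S1_a_at at 688 and 295 against 418 and 354, so that the genotypes overlapped in both. The other probe set of sub-cluster 3, Ta.14507.3.S1_at, was dim on all arrays, at 26.6 and 20.7 in RL4452 and at 17.0 and 20.5 in AC Domain. Within sub-cluster 3, then, the probes shared by several transcripts were on and the others were off in both genotypes.

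In cluster Ta.30798 the probe set chosen by the rule was Ta.30798.1.A1_at, at 479 and 289.5 in RL4452 and at 23.2 and 16.3 in AC Domain. Sub-clusters 2 and 3 were on in AC Domain. Ta.30798.2.S1_at was at 576 and 467 in RL4452 and at 421 and 414 in AC Domain, a difference of 0.31 on the log2 scale without overlap of the genotypes. Ta.30798.3.S1_at was at 866 and 1059 in RL4452 and at 752 and 866 in AC Domain. These small differences had the direction of the first sub-cluster but not its size, which was 4.26.

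These 4 clusters were those with another sub-cluster on in both AC Domain arrays, out of 10 clusters that had another sub-cluster represented at all. Among 3835 other clusters that had several sub-clusters and a probe set on in RL4452, 50.6% had another sub-cluster on in AC Domain. The share among the clusters described here is close to that of clusters in general, so nothing particular to them is read from it. The 7 probe sets of other sub-clusters that were on in AC Domain differed by between -0.09 and 0.31 on the log2 scale, with a median of 0.19.

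In the remaining 6 clusters with another sub-cluster, that sub-cluster was dim in AC Domain or between the thresholds. In Ta.7259, all 4 probe sets were higher on both RL4452 arrays than on both AC Domain arrays. Ta.7259.1.S1_at was at 873 and 1317 in RL4452 and at 14.8 and 15.8 in AC Domain. Ta.7259.1.S1_a_at, of the same sub-cluster, was at 756 and 554 in RL4452 and at 9.59 and 11.2 in AC Domain. Sub-clusters 2 and 3 were lower but ran the same way. Ta.7259.2.S1_a_at was at 219.8 and 86.4 against 17.2 and 12.1, and Ta.7259.3.S1_x_at at 107 and 63.3 against 8.35 and 8.08. They missed the rule because at least 1 RL4452 array was under the on threshold.

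Cluster Ta.10217 was alike in this respect. Ta.10217.1.A1_at was at 765 and 469 in RL4452 and at 14.2 and 9.67 in AC Domain. Ta.10217.2.S1_at was at 200.5 and 45.5 against 16.6 and 15.8, and Ta.10217.3.S1_at at 163 and 71.8 against 25.0 and 21.7. All 3 sub-clusters were higher in RL4452 on both arrays, but RL4452 replicate 2 was below the on threshold for sub-clusters 2 and 3. In Ta.4915 the chosen Ta.4915.1.A1_at was at 166 and 179 in RL4452 and at 21.8 and 25.4 in AC Domain. Its other sub-cluster, Ta.4915.2.S1_at, was at 69.5 and 39.7 against 21.0 and 15.7.

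In Ta.30560 the other sub-cluster was dim in AC Domain without being off. Ta.30560.1.S1_at was at 752 and 729.7 in RL4452, the closest pair of RL4452 values among the 40, and at 24.3 and 16.9 in AC Domain. Ta.30560.2.S1_a_at was at 199 and 121 in RL4452 and at 54.3 and 34.8 in AC Domain, again higher in RL4452 on both arrays. The last 2 clusters had another sub-cluster that did not follow. TaAffx.111425.2.S1_at was at 178 and 303 in RL4452 and at 13.5 and 15.4 in AC Domain, while TaAffx.111425.1.S1_at stayed between 69.8 and 77.6 on all 4 arrays. Ta.7326.2.S1_at was at 164 and 289.7 in RL4452 and at 21.1 and 26.3 in AC Domain, while Ta.7326.1.S1_at was below 32 on all 4 arrays.

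**Figure D2:**
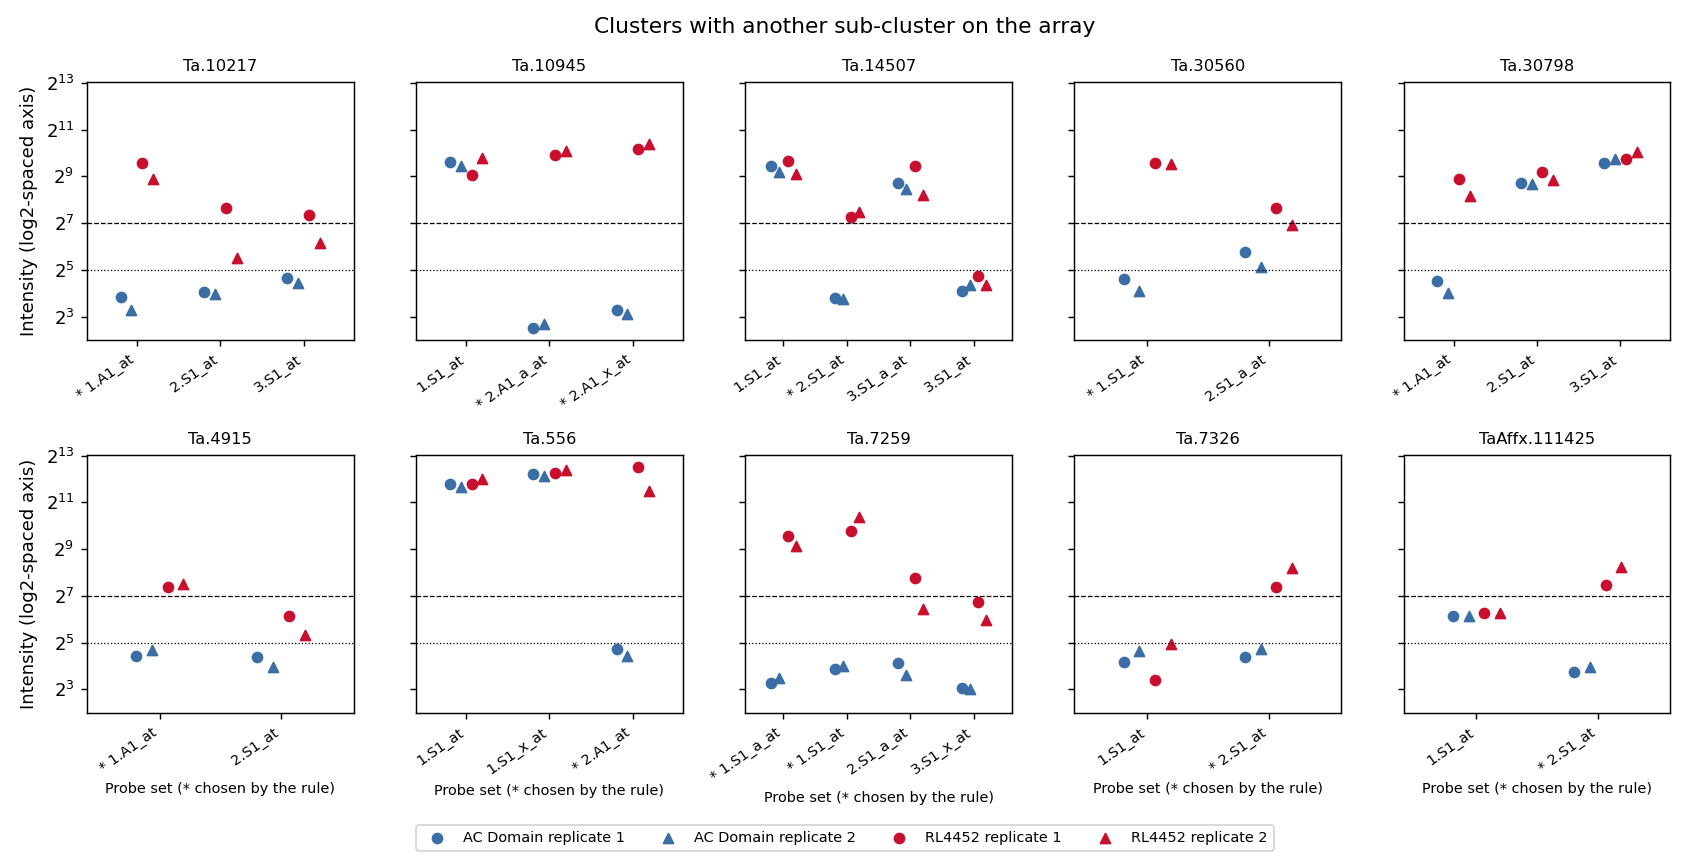
Intensity (log2-spaced axis) of every probe set in the 10 clusters that had another sub-cluster, on AC Domain arrays (blue) and RL4452 arrays (red), with circles for replicate 1 and triangles for replicate 2. An asterisk marks the probe sets chosen by the rule, and dashed and dotted lines the on and off thresholds. In the clusters of Ta.556.2.A1_at, Ta.10945.2.A1_a_at, Ta.14507.2.S1_at and Ta.30798.1.A1_at another sub-cluster was above the dashed line in both genotypes.

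Across the 10 clusters, the other sub-clusters had 16 probe sets, 7 on and 7 off in AC Domain, and 7 on in RL4452. Both RL4452 arrays lay above both AC Domain arrays in 11 of these 16, beside 24.0% of all probe sets. Some of the 11 differed by little, such as TaAffx.111425.1.S1_at by 0.12 and Ta.14507.3.S1_at, dim on all arrays, by 0.33 on the log2 scale. Several of the 11 come from the same cluster, so they are not separate evidence. The median difference of the 16 was 0.28 on the log2 scale, with a range from -0.24 to 3.32. Of the 7 that were off in AC Domain, 0 were on in both RL4452 arrays, as they would otherwise have met the rule, and their median difference was 2.22.

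Partners of the same sub-cluster that missed the rule were few. There were 3, and in each both RL4452 arrays lay above both AC Domain arrays, beside 24.0% of all probe sets. They can share probes with the chosen probe sets, so they are not separate evidence. Ta.3017.1.S1_at was at 121 and 698 in RL4452 and at 13.4 and 16.6 in AC Domain, and so missed the on threshold on 1 array. TaAffx.55074.1.S1_x_at was at 54.6 and 35.9 against 13.8 and 11.0, where the chosen TaAffx.55074.1.S1_s_at was at 808 and 522 against 17.1 and 16.3. TaAffx.57156.1.S1_x_at was at 574 and 353 in RL4452 but at 105 and 74.1 in AC Domain, above the threshold of 32. Its chosen partner TaAffx.57156.1.S1_at was at 378 and 143 against 24.6 and 30.4.

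Sharing of a cluster among the 40 was limited to 3 clusters with 2 probe sets each, Ta.10945, Ta.7259 and Ta.2895, and in each of these both probe sets belong to 1 sub-cluster. In Ta.2895 the higher AC Domain array of both probe sets sat just under the threshold. Ta.2895.1.S1_x_at was at 1747 and 1518 in RL4452 and at 29.5 and 31.4 in AC Domain, and Ta.2895.1.S1_at at 1292 and 965 against 31.1 and 24.6. These 2 were, with TaAffx.57156.1.S1_at, the only ones of the 40 with both AC Domain arrays above the negative control level. Their measured folds were 53.5 and 40.3.

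For 23 of the 40 no other probe set of the cluster was on the array, so that no comparison within the cluster could be made. Clusters with more than 1 probe set made 37.8% of the 37, beside 43.6% of the 10505 clusters with any probe set on in RL4452. The 23 had a median difference of 4.78 on the log2 scale, and the 17 that shared a cluster had 5.28.

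Of these 23, 5 stood out as the brightest in RL4452. TaAffx.113846.1.S1_s_at was at 2362 and 1725 in RL4452 and at 11.0 and 12.9 in AC Domain, a difference of at least 90.6-fold. Ta.8659.1.S1_at was at 1447 and 2018 against 12.9 and 20.1, at least 76.7-fold. Ta.28263.1.S1_at was at 1299 and 1737 against 9.16 and 9.39, at least 67.4-fold. The RL4452 arrays of these probe sets were 1.37-fold, 1.39-fold and 1.34-fold apart, in the order given. Ta.6952.1.S1_a_at was at 1589 and 1328 against 16.1 and 12.2, at least 65.2-fold. Ta.9397.1.S1_at was at 1721 and 1023 against 20.5 and 21.6, at least 59.5-fold. With Ta.556.2.A1_at, the first 4 of these were the 5 of the 40 with a lower bound of at least 64-fold.

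A second tier of single probe sets was dimmer in RL4452. Ta.6210.1.S1_at was at 997 and 807 in RL4452 and at 19.1 and 24.1 in AC Domain. TaAffx.29938.1.S1_at was at 638 and 874 against 27.4 and 22.1. TaAffx.16946.1.S1_at was at 555 and 358 against 11.3 and 9.93. None of these is named here, and neither are those that follow, so that no role can be given. TaAffx.33919.1.S1_at was at 547 and 429.8 against 17.2 and 17.9. Ta.3469.1.A1_at was at 315 and 331 against 12.2 and 12.9. Ta.3211.1.S1_at was at 269 and 476 against 9.12 and 8.23. The RL4452 arrays of Ta.3469.1.A1_at were nearly equal, and those of Ta.3211.1.S1_at 1.77-fold apart. Ta.21783.1.S1_at was at 276 and 392 against 14.9 and 9.60, and Ta.8888.1.A1_at at 251 and 439.7 against 11.0 and 8.31.

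The remaining single probe sets were the dimmest in RL4452. Ta.14246.1.S1_at was at 235 and 271 in RL4452 and at 19.0 and 21.2 in AC Domain. Ta.4978.2.A1_a_at was at 256.5 and 229 against 15.1 and 20.3. TaAffx.25439.1.S1_s_at was at 207 and 322 against 18.1 and 28.1. In these 3 the gap between genotypes was between 3.52 and 3.79 on the log2 scale. Ta.27806.1.A1_at was at 184 and 333 against 14.1 and 9.89, and Ta.8570.1.A1_at at 180.2 and 328 against 15.9 and 17.4. Both were about as far apart between the RL4452 arrays, at 1.81-fold and 1.82-fold. Ta.7919.1.S1_at was at 170.4 and 256.3 against 18.8 and 16.03, and Ta.8878.1.S1_at at 221 and 154 against 17.0 and 18.1. TaAffx.24879.1.S1_at was at 145 and 175 against 18.7 and 22.2. The smallest difference of the 40 was that of TaAffx.64288.1.A1_at, at 135 and 197 against 27.5 and 20.9, or 2.77 on the log2 scale.

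The spread between replicates was larger in RL4452 than in AC Domain, for these probe sets and for others. The median SD of log2 intensity over 2 arrays was 0.36 in RL4452 and 0.17 in AC Domain. Over the 14492 probe sets on in RL4452 it was 0.25 in RL4452 and 0.13 in AC Domain, and over all probe sets 0.20 and 0.13. The 2 RL4452 arrays were more than 2-fold apart in 3 of the 40 (7.50%), beside 6.36% of all probe sets on in RL4452. The 3 were Ta.3017.1.S1_x_at, TaAffx.57156.1.S1_at and Ta.556.2.A1_at. Ta.3017.1.S1_x_at was at 132 and 917 in RL4452 and at 20.3 and 29.3 in AC Domain, so that its RL4452 arrays were 6.96-fold apart. The same direction was seen in its partner Ta.3017.1.S1_at, which can share probes with it. Of the 40, 23 were higher on RL4452 replicate 2 (57.5%), beside 60.1% of the probe sets on in RL4452.

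Single arrays give a view of how often the on and off pattern arises between replicates. On in one AC Domain array and off in the other was found in 1 and 2 probe sets. Between the RL4452 arrays it was found in 33 with replicate 1 on and replicate 2 off, and in 1 the other way. From an RL4452 array on to an AC Domain array off, the 4 pairs of arrays gave 55 to 72 probe sets. Of the 33 that were off on RL4452 replicate 2, 3 were also off on both AC Domain arrays. With AC Domain off on both arrays, 48 probe sets were on in RL4452 replicate 1 and 58 in replicate 2, and the 40 are those in both. The 8 on in replicate 1 alone had a median of 42.9 in replicate 2, and the 18 on in replicate 2 alone had a median of 83.8 in replicate 1.

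**Figure D3:**
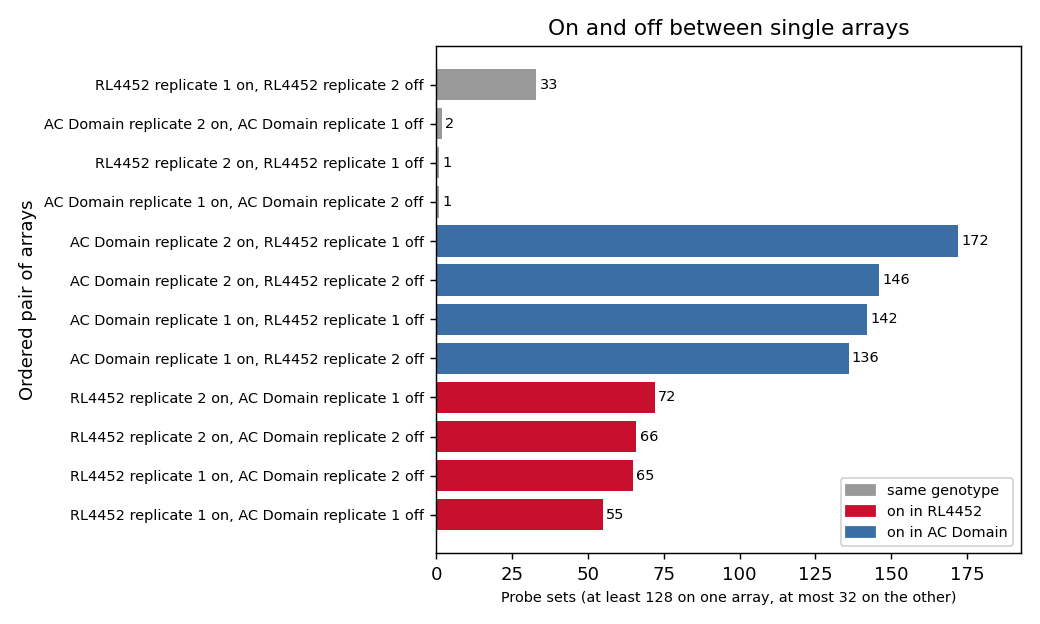
Number of probe sets on in one array (log2 intensity of at least 7) and off in another (at most 5), for each of the 12 ordered pairs of arrays. Grey bars are pairs of the same genotype (1, 1, 2 and 33 probe sets), red bars have the RL4452 array on (55 to 72) and blue bars the AC Domain array on (136 to 172).

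The thresholds lie in a sparse but not empty range. Of the 14492 probe sets on in both RL4452 arrays, 78.3% had their higher AC Domain array above 8 on the log2 scale and 19.3% between 7 and 8. A further 273 lay between 6 and 7, 36 between 5 and 6, and the 40 at 5 or below. On the RL4452 side, 37 probe sets with AC Domain off had their lower RL4452 array between 6 and 7 on the log2 scale. The closest inside the on threshold, with linear intensities, were Ta.3017.1.S1_x_at (lower RL4452 array at 132), Ta.15881.1.S1_at (132), TaAffx.64288.1.A1_at (135), TaAffx.57156.1.S1_at (143) and TaAffx.24879.1.S1_at (145). Ta.15881.1.S1_at was at 132 and 223 in RL4452 and at 14.1 and 20.9 in AC Domain. Just outside were Ta.3688.1.A1_at (123), Ta.3017.1.S1_at (121), Ta.226.1.S1_at (114), TaAffx.36877.1.S1_at (105) and Ta.10441.1.S1_at (103). On the AC Domain side, Ta.2895.1.S1_x_at (higher AC Domain array at 31.4), Ta.2895.1.S1_at (31.1), TaAffx.57156.1.S1_at (30.4), Ta.3017.1.S1_x_at (29.3) and TaAffx.25439.1.S1_s_at (28.1) were closest inside. Just outside lay Ta.7694.1.S1_s_at (32.4), Ta.14571.1.S1_at (32.5), Ta.9089.1.A1_at (33.6), Ta.6364.1.A1_at (35.3) and Ta.16067.1.S1_at (36.6). Ta.9089.1.A1_at, at 1333 and 2604 in RL4452 against 33.6 and 33.4 in AC Domain, missed the rule by less than 2 units of intensity on each AC Domain array.

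By their IDs, 30 of the 40 belong to Ta clusters and 10 to TaAffx clusters (25.0%), beside 17.2% TaAffx among probe sets on in RL4452 and 48.6% among all. The plain ending at was carried by 30 (75.0%), beside 59.0% of probe sets on in RL4452 and 79.2% of all. The ending a_at was carried by 4 (10%, beside 13.7% and 5.43%), s_at by 3 (7.5%, beside 7.70% and 4.28%) and x_at by 3 (7.5%, beside 19.6% and 11.1%). In 12 the sub-cluster was followed by the letter A (30.0%), which marks the orientation in which the sequence was put on the array, beside 18.4% among probe sets on in RL4452 and 17.4% among all. Gene names are rare on this array: 2.08% of all probe sets and 4.63% of those on in RL4452 have 1 gene, so that 0 of 40 is near what the array holds. The 19 other probe sets of their clusters had 0 names as well.

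The reverse pattern, on in both AC Domain arrays and off in both RL4452 arrays, was met by 85 probe sets, which is 0.139% of all, beside 0.0655% for the 40. Set against the probe sets that were on in the brighter genotype, these are 0.542% of 15677 in AC Domain and 0.276% of 14492 in RL4452. The brighter genotype was at a median of 365 for the 40 and of 267 for the 85, and the dimmer one at 17.3 and 19.5. The letter A was carried by 34.1% of the 85, close to the 30.0% of the 40. Of 24 clusters with another sub-cluster among the 85, 9 (37.5%) had one on in RL4452, close to 4 of 10. No cluster held probe sets of both patterns. These differences between the 2 sets were not tested, since the rule that chose them used the same arrays.

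**Figure D4:**
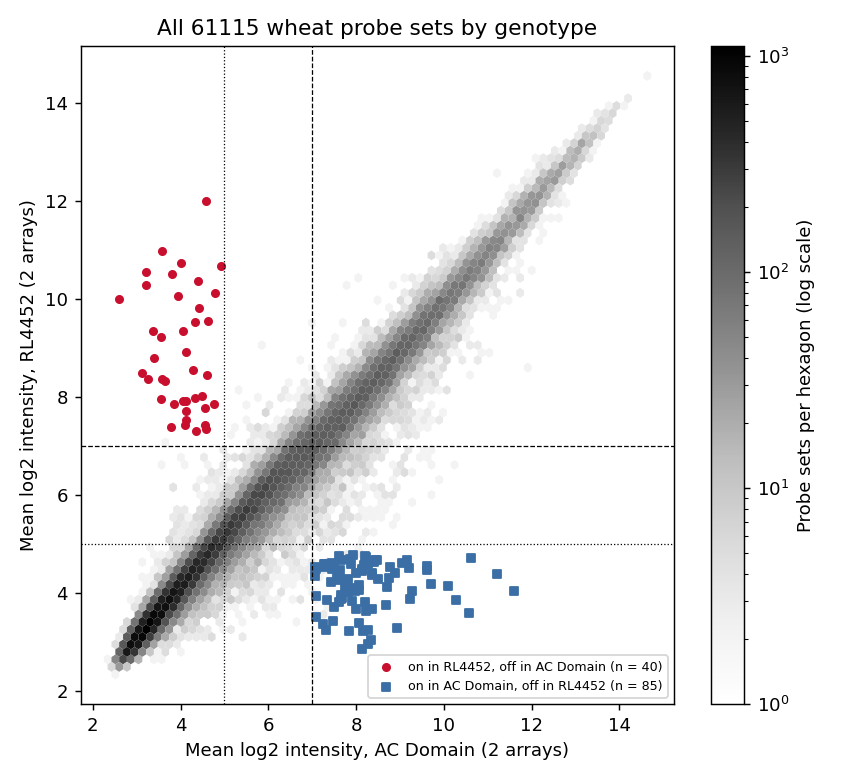
Mean log2 intensity in AC Domain (x axis) and RL4452 (y axis) over 2 arrays each, for all 61115 wheat probe sets as grey hexagons shaded by number on a log scale. Red circles are the 40 probe sets on in RL4452 and off in AC Domain, blue squares the 85 with the reverse pattern, and dashed and dotted lines the on and off thresholds.

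For reference, limma fitted over all probe sets (adjusted p under 0.05) called 38 of the 40 higher in RL4452. Over all probe sets it called 489 (0.800%), of which 137 (0.224%) were higher and 352 (0.576%) lower in RL4452. Nothing is read from this, since the rule used the same contrast. The other two were Ta.3017.1.S1_x_at and TaAffx.57156.1.S1_at, 2 of the 3 whose RL4452 arrays were more than 2-fold apart. Of the 16 probe sets of other sub-clusters, 1 was called, Ta.7259.3.S1_x_at, and 6 had an unadjusted p under 0.05, all higher in RL4452. Of the 3 partners of the same sub-cluster, limma called 0, and all 3 had an unadjusted p under 0.05. Such an unadjusted p was reached by 9.16% of all probe sets in either direction. The replicate number as a block pairs arrays of the same project. With this block limma called 667 of all 61115 probe sets, beside 489 without it. Among the partners it then called 3 of the 16 and 2 of the 3. The added calls were Ta.30560.2.S1_a_at and Ta.7259.2.S1_a_at among other sub-clusters, and TaAffx.55074.1.S1_x_at and TaAffx.57156.1.S1_x_at among partners of the same sub-cluster. With 1 array left out, a genotype has 1 array and its spread is assumed to be that of the other pair. The number of the 40 called was then 0 without either AC Domain array (all 40 had an unadjusted p under 0.05), where the spread came from the RL4452 pair, and 40 without either RL4452 array, where it came from the AC Domain pair.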

How the data were processed

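Messenger RNA of 4 seed samples was hybridised, per the labels' protocols, to one 1-colour Affymetrix wheat GeneChip array each. RMA, which the submitters' processing notes name, gave the deposited intensities, and their values show a linear scale; the RMA version and the arrays normalised together are not given in the sources used here. The table held 61290 probe sets, of which 175 controls (IDs starting AFFX or RPTR) were left out. Python 3.11.15 with pandas 2.3.3 applied the rule (at least 128 in RL4452, at most 32 in AC Domain) to the deposited intensities. Differences are RL4452 minus AC Domain on the log2 scale without further normalisation, and errors are SDs over 2 arrays, whose number limits the precision. The negative control level came from 23 Tag and TrpnX probe sets.

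The background of calls came from limma's lmFit and eBayes (version 3.58.1, R 4.3.3; genotype as the factor, two-sided, Benjamini-Hochberg adjusted p under 0.05), checked on simulated data. Replicate numbers pair the arrays through the project named in the run files, which replicate 1 arrays share and replicate 2 arrays share; same-numbered arrays deviated together (r = 0.398 over all probe sets on 4 arrays; probe sets are no independent points). Where each sample's seeds came from within the trial is not given, so the spread may be partly technical.

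Names came from a platform annotation, which gave 1273 probe sets 1 gene each, 771 genes, of which 770 were found in RefSeq genes of IWGSC CS RefSeq v2.1. Named by plan were the 12 brightest, the 12 with the largest difference and the 5 nearest each side of a threshold. The plan also named every shared cluster and the partners that were on in AC Domain. Partners beyond these were not in the plan, and the remaining members were added after their values were seen. The members and lists were chosen with earlier results of these data known. Alternatives covered thresholds, scaling, probe set endings, single arrays, the replicate block, a dim filter and an intensity trend.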

Additional observations from a re-analysis of the deposited data

How the results depend on the processing

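The count of 40 followed the thresholds: 77 with on at 6 on the log2 scale, 23 with on at 8, 15 with off at 4 and 76 with off at 6. The count of the reverse pattern, 85, became 168, 32, 23 and 197 in the same order, and 43 with off at the negative control level of 22.3, where the 40 became 27. Median centring and quantile normalisation each gave 39. Without 1 array the 40 became 44 to 58 and the 85 became 95 to 124. Leaving out RL4452 replicate 2, whose wash was marked as aborted, gave 48 and 124. The 4 clusters with another sub-cluster on in AC Domain were 4 without either AC Domain array and 4 to 6 under the other alternatives. For this count the 40 were kept as chosen and RL4452 arrays were not used. Leaving out an RL4452 array could therefore not change it. The median log2 difference of 4.86 was 4.02 with AC Domain and RL4452 values floored at the negative control level, by construction, and 4.71 to 5.09 without 1 array.

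limma called 489 probe sets and 38 of the 40, and 667 and 38 with the replicate block. With 1 array left out, the lone array of a genotype is assumed to vary like the other pair, so these fits differ in which pair supplies the spread. Without AC Domain replicate 1 or 2, where the RL4452 pair supplied it, limma called 0 over all and 0 of the 40, while 2999 or 2441 over all and 40 of the 40 had an unadjusted p under 0.05. Without RL4452 replicate 1 or 2 it called 1031 or 998 over all and 40 of the 40.

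Alternatives for the partners were chosen after seeing the data. Over all 61115 probe sets limma called 489, 667 with the replicate block and 630 with the intensity trend. With the filter on dim probe sets it called 613 of 37045. Of the 16 of other sub-clusters limma called 1, 3 with the replicate block, 2 with the filter on dim probe sets (of 15 tested), 2 with the intensity trend, and 0 to 5 without 1 array. Of the 3 of the same sub-cluster it called 0, 2 with the replicate block, 1 with the filter, 2 with the trend, and 0 to 3 without 1 array. The replicate block thus changed calls over all probe sets and of partners, and not the number of the 40 called. Depth on an array is signal over background: AC Domain values of most of the 40 lie below the negative control level and have no order among themselves.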
